A study of Mus musculus with 15 samples.

Results

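The genes for the proteins of the cytosolic ribosome were read on 15 arrays of mouse NIH 3T3 fibroblasts, 3 arrays in each of 5 groups. A probe set was taken when the annotation of the array gave it 1 symbol alone and that symbol began with Rpl or Rps and a digit, or was Rpsa, Rplp0, Rplp1 or Rplp2. Rps6k kinases and symbols with "-ps" were left out. The rule found 49 of the 12422 probe sets that are not controls, and they stand for 35 genes, 17 of the large subunit and 18 of the small subunit. Of these genes, 25 had 1 probe set and 10 had several. Rplp1 and Rplp2 had no probe set that met the rule.

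NIH 3T3 is an immortalised line of mouse embryo fibroblasts. The cells had been transfected with a plasmid whose metallothionein promoter responds to zinc and which carried either no insert (the group called vector) or a human C/EBP cDNA, that of C/EBPα (alpha), C/EBPβ (beta), C/EBPδ (delta) and C/EBPε (epsilon). Every group, vector included, was grown under G418 selection and given zinc sulphate for 16 h before total RNA was taken, so an effect of zinc itself was shared by all groups. The labels describe the transfected cells as polyclonal and the arrays as triplicate clones, and the p-values below measure the spread between these cultures, which may be technical in part. C/EBPs are leucine-zipper transcription factors with roles in the differentiation of adipocytes, hepatocytes and granulocytes, and the comparisons ask whether ribosomal protein transcripts differed when 1 of the 4 was induced.

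A cytosolic ribosome has a large subunit, which joins amino acids, and a small subunit, which reads the mRNA. Each subunit holds many different proteins, named RPL and RPS, and growing cells make them in matched amounts from strongly and steadily transcribed genes. Most of their mRNAs begin with an unbroken stretch of pyrimidines, the 5′ terminal oligopyrimidine (TOP) motif, through which mTORC1 and LARP1 control their translation rather than their transcription. The genes also have many processed pseudogenes of nearly identical sequence, so a probe set named for 1 gene can bind RNA of a copy. An array of pooled RNA cannot tell less of an mRNA in every cell from fewer cells that make it. The signals are scaled to each array, so a change in total RNA per cell would not show.

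The starts of 10 of these genes are shown because the pyrimidine stretch is the feature the family is known for. They include the genes described one by one below. For Rps19 and Rpl22, which have several annotated starts with no such run at any, the first is shown. Rps24 has a further annotated start without such a run, and only its start with the run is shown. The sequences are from the RefSeq promoter table of GRCm38.p6. Each line has 15 bases before the annotated start and 15 from it on, and capitals mark an unbroken run of C or T of at least 7 bases that comes within 5 bases of the start.
Rpl7a, chr2:26910792-26910821, plus strand: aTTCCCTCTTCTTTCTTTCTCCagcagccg
Rps24, chr14:24490663-24490692, plus strand: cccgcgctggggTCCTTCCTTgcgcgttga
Rps10, chr17:27635230-27635259, minus strand: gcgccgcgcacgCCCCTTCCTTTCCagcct
Rps18, chr17:33955651-33955680, minus strand: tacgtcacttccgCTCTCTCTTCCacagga
Rps27, chr3:90213634-90213663, minus strand: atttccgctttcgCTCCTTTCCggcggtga
Rpl39l, chr16:10170213-10170242, plus strand: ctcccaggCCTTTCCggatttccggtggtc
Rps4x, chrX:102189377-102189406, minus strand: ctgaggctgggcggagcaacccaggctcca
Rplp0, chr5:115559452-115559481, plus strand: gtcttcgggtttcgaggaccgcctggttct
Rps19, chr7:24884577-24884606, plus strand: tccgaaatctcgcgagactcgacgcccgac
Rpl22, chr4:152324421-152324450, plus strand: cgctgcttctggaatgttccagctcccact

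Rpl7a had a run of 21 pyrimidines, Rps10 13, Rps18 11, Rps24 and Rps27 9 each, and Rpl39l 7, while the windows of Rps4x, Rplp0, Rps19 and Rpl22 held none that met the rule. The run of Rpl39l lay wholly in the 15 bases before the annotated start. With 6 of 10, the starts shown are richer in runs than the family as a whole. The table held 37 promoters, each of 300 bases, for 28 of the 35 genes. Such a run on the sense strand was present in 12 of the 37 promoters (32.4%), against 14.1% of all 32851 promoters in the table. The same run on the other strand was in 8.11% of the ribosomal protein promoters and 15.4% of all. Of motifs searched on both strands over the whole promoter, CCGGAAG, the core bound by ETS factors such as GABP, was in 32.4% against 8.86%, and AAGATGGC, the YY1 motif, in 18.9% against 2.75%. TTNNGNAA, a form of the C/EBP motif, was in 32.4% against 40.7%. The reverse complement of CCGGAAG is rich in pyrimidines, so matches to it and to the run can share bases. These are matches of letters in a window, and the data bear on none of them as a binding site.

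The deposited values are linear intensities, scaled by the authors so that the 2% trimmed mean was 2501.12 to 2501.39 on each array. Each array was then divided by its median, a floor of 189.652 units was set, and values were put on the log2 scale. Testing was limited to probe sets over 1092.06 units, the pooled median and the signal filter in what follows, on at least 3 of the 15 arrays, of which there were 6963. With intensities, precision is limited by the number of arrays. Of 13 fibroblast markers, 9 were above this filter on all 15 arrays, Col1a1, Fn1, Sparc and Pdgfra among them, whereas the probe sets for Vim and Lum had median signals of 783 and 329 units. The other fibroblast markers, Col3a1 and Pdgfrb, exceeded the filter on 8 arrays each. None of 3 hepatocyte, 2 adipocyte and 4 endothelial markers exceeded it on all 15 arrays, though the endothelial Kdr exceeded it on 13. However, 1 of 5 epithelial markers (Cdh1) and 2 of 5 haematopoietic markers (Cd14 and Csf1r) were above it on all 15. The array of each group whose title carries no digit, here called number 1, stood apart from the others in the ribosomal protein genes, and its values are given with those genes below.

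The 49 probe sets fell into separate ranges of signal. On average over the 15 arrays, 23 exceeded 10000 units, with means from 16514 to 166092 units. A further 3, for Rpl7l1, Rpl32 and Rps27, had means of 2569, 4797 and 5679 units. These 26 probe sets for 24 genes were above the filter on all 15 arrays. Rps29 98523_at followed at 1258 units, and the remaining 22 had means under 800 units. The brightness of a probe set depends on its probes, so these ranges describe probe sets and not the abundance of 1 gene's mRNA against another's.

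**Figure D1:**
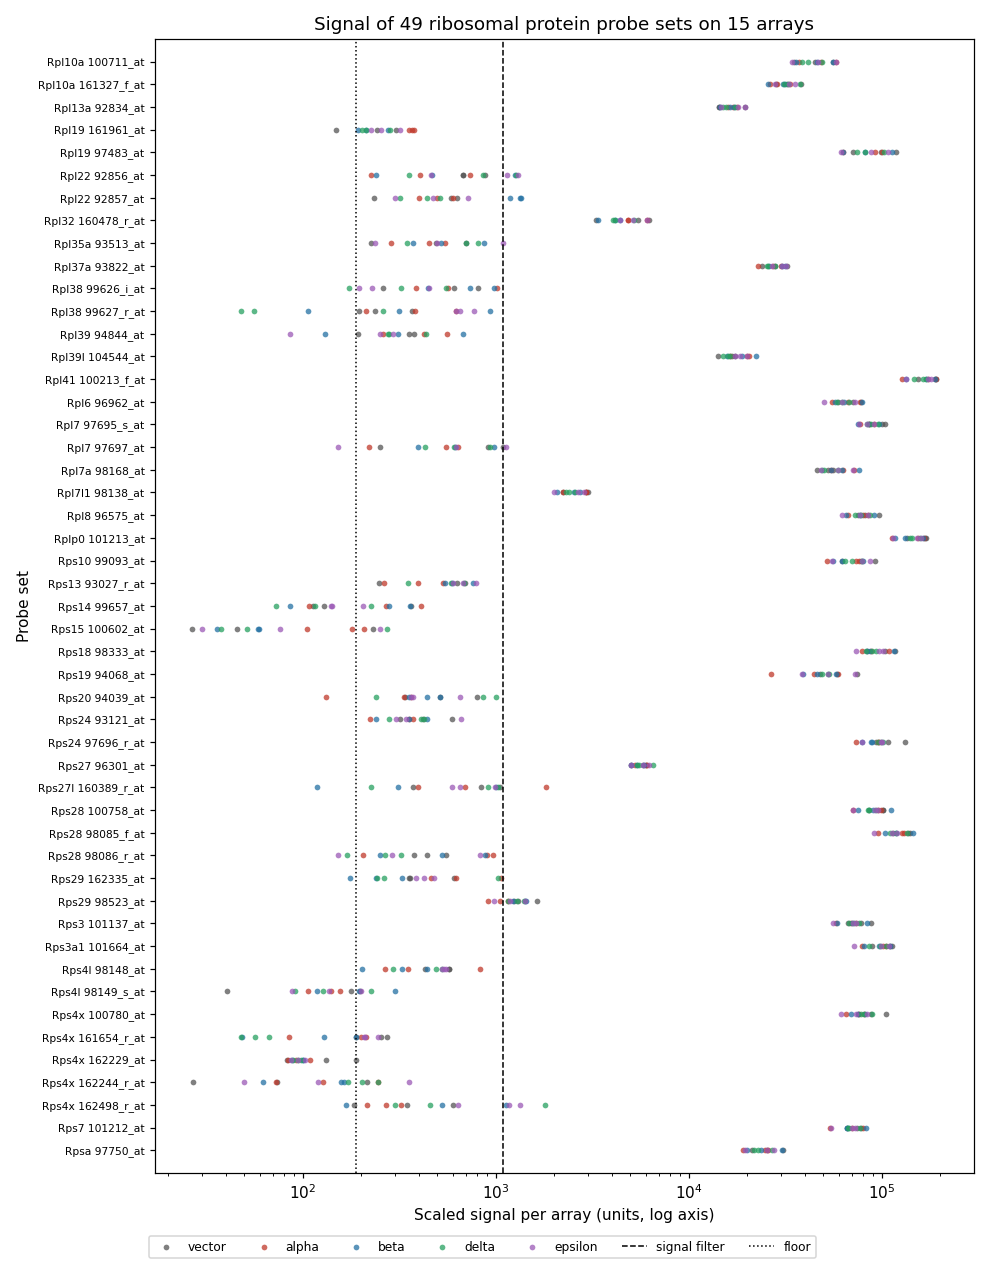
Signal of the 49 probe sets, in gene order, on each of the 15 arrays (log axis, scaled units, points coloured by group), with the filter of 1092.06 units dashed and the floor of 189.652 units dotted. Probe sets of Rps4x, Rpl19, Rps24, Rps28 and Rpl7 lie on both sides of the filter, and the points of the 5 groups lie over each other for nearly every bright probe set.

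Several genes had probe sets that disagreed by orders of magnitude. Rps4x, an X-linked protein of the small subunit, had 5 probe sets, and 100780_at averaged 79315 units while 162229_at averaged 103 units. The other 3 averaged 153, 162 and 631 units. Rpl19 was at 88065 units by 97483_at and at 266 by 161961_at, and Rps24 was at 95511 units by 97696_r_at and at 384 by 93121_at. Rps28 had 98085_f_at at 120351 and 100758_at at 90499 units, but 98086_r_at at 476 units. Rpl7 had 97695_s_at at 88218 and 97697_at at 637 units. Both probe sets of Rpl10a were bright, at 45808 and 31636 units, and both of Rpl22 were dim, at 733 and 641 units. In 6 genes a probe set that was tested stood beside one that was not.

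In all, 30 probe sets for 26 genes were tested and 19 were not. The 19 averaged between 103 and 736 units. For 9 genes no probe set reached the filter often enough: Rpl35a, Rpl38 with 2 probe sets, Rpl39, Rps13, Rps14, Rps15, Rps20, the paralog Rps27l, and Rps4l with 2, which RefSeq lists as a transcribed pseudogene. A low signal here is a property of these probe sets and no evidence that the gene was silent. Near the filter, Rps29 98523_at exceeded it on 12 arrays, Rps4x 162498_r_at and Rpl22 92856_at on 4, and Rpl22 92857_at on 3, all of them beta arrays, so that the last was tested only through the group in which it was high. Rpl35a 93513_at, Rpl7 97697_at and Rps27l 160389_r_at exceeded it on 1 array each and were not tested.

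None of the 30 probe sets differed among the 5 groups by limma's F-test at an adjusted p under 0.05, whereas 16.5% of all probe sets tested did. None was called in any of the 4 contrasts with vector. Of all probe sets tested, limma called 14.3% in alpha, 9.31% in beta, 0.359% in delta and 16.3% in epsilon. At an unadjusted p under 0.05 the ribosomal protein counts were 0 in alpha, 2 in beta (1 higher and 1 lower), 0 in delta and 0 in epsilon. Other settings called up to 4 of them in alpha, up to 3 in beta, 0 in delta and up to 4 in epsilon, with the most in alpha and epsilon when the replicate number entered as a block, and the genes concerned are described below.

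The differences were small and mostly negative on the array-median scale. The median over the 30 was −0.14 on the log2 scale in alpha, −0.11 in beta, −0.10 in delta and −0.15 in epsilon, while the medians over all probe sets tested were 0.00, 0.04, 0.01 and 0.08. With quantile normalization, which gives every array the same distribution, the members' medians were 0.02, −0.00, −0.00 and 0.00, beside 0.01, 0.02, 0.01 and 0.03 over all probe sets tested. The members' medians thus all lay within 0.02 of 0 under that setting. It fixes values by rank, which by itself holds the differences of the very brightest probe sets near 0. On the array-median scale 23, 23, 25 and 20 of the 30 were negative. The within-group SD of an array's median over the members was 0.23. It is a spread of single arrays that takes in the low arrays numbered 1, so it does not measure the error of these shifts. For the 26 members above the filter throughout, medians relative to their own means were −0.11, 0.26 and 0.16 on vector 1, 2 and 3. Alpha, at −0.27, 0.05 and 0.14, beta, at −0.24, 0.21 and −0.01, and epsilon, at −0.33, 0.15 and 0.06, lay below vector on every number. Delta, at −0.08, 0.11 and −0.05, was above vector on number 1 alone. A shift of the whole set was not tested. The alpha median of the differences was 0.01 without alpha 1 and −0.24 without vector 1.

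Each interval bounds what could have been missed for its own probe set on the array-median scale. Over the 26 probe sets above the filter on all arrays, the 95% intervals in alpha reached at most 2.11-fold lower and 1.56-fold higher. They reached 1.86-fold lower and 1.58-fold higher in beta, 1.70 and 1.34 in delta, and 1.66 and 1.47 in epsilon. Over all 30 tested, the dim ones included, they reached 4.6-fold lower and 2.3-fold higher in alpha and 3.6 and 6.0 in beta. They reached 2.6 and 5.5 in delta and 2.1 and 8.8 in epsilon. The 9 genes without a tested probe set have no interval. The subunits gave similar medians, at −0.07 and −0.15 for large and small in alpha, −0.12 and −0.11 in beta, −0.09 and −0.11 in delta, and −0.07 and −0.17 in epsilon, over 14 and 12 probe sets.

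**Figure D2:**
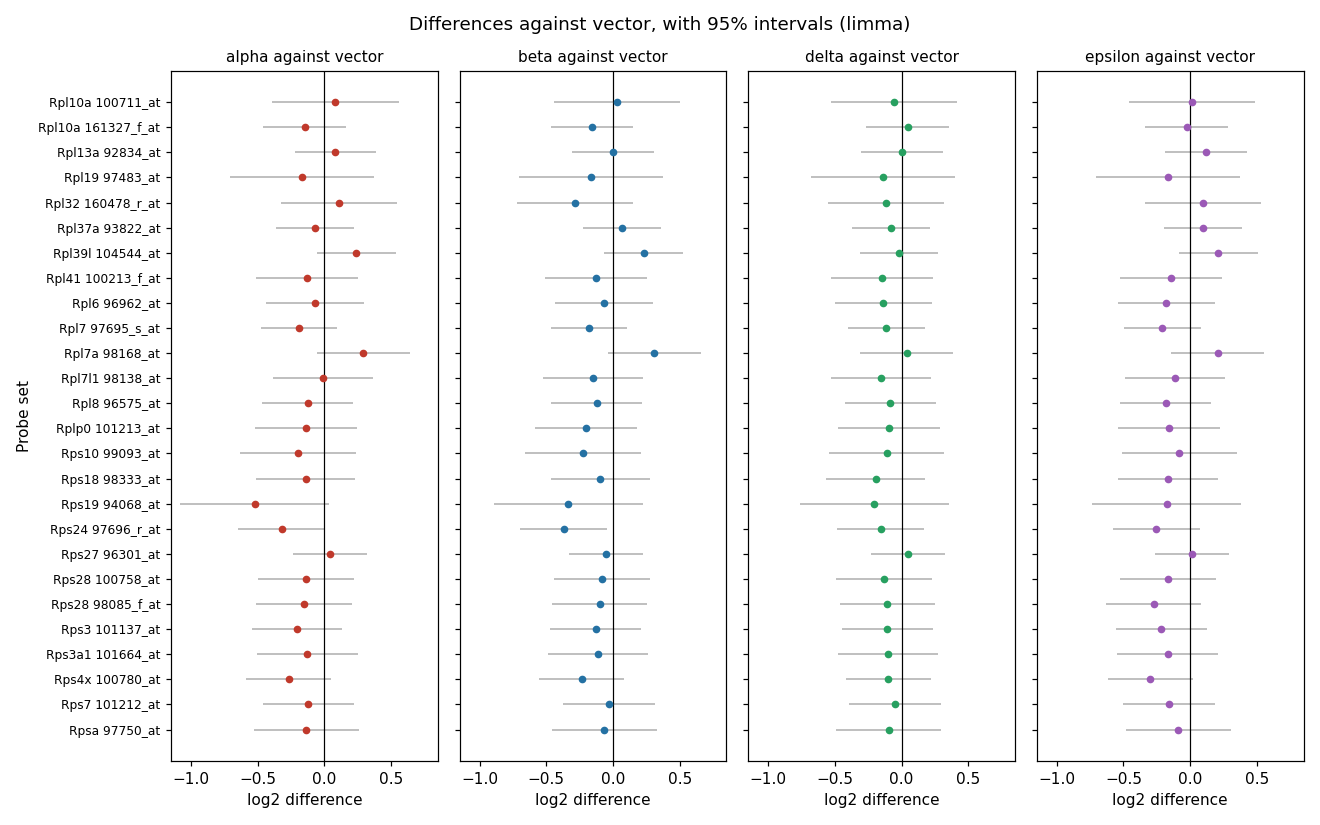
Log2 difference from vector of each of the 26 probe sets above the filter on all 15 arrays (points) with the 95% interval of the limma fit (bars), 1 panel for each C/EBP. Most points lie slightly left of 0, and Rpl7a and Rpl39l lie to its right in alpha, beta and epsilon.

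Few ribosomal protein probe sets had arrays that separated completely from vector. In alpha 1 was lower on all 3 arrays (Rps29 98523_at) and none was higher, against 13.7% and 14.4% of all probe sets tested. In beta 1 was higher (Rpl22 92857_at, tested only through beta, against 15.5%) and 1 lower (Rps24 97696_r_at, against 11.7%). In delta none separated in either direction, against 6.94% higher and 4.77% lower. In epsilon 2 were higher (Rpl39l and Rps4x 162498_r_at, against 18.0%) and none lower (against 11.8%).

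The contrasts between C/EBPs gave 0 calls as well. Of all probe sets tested, limma called 2.86% in beta against alpha, 8.40% in delta against alpha, 1.31% in epsilon against alpha, 4.77% in delta against beta, 2.34% in epsilon against beta and 8.21% in epsilon against delta. The unadjusted counts under 0.05 were 1, 0, 1, 1, 1 and 0 of 30 in the same order. In each contrast that includes beta the 1 was Rpl22 92857_at, which was tested only through beta and has no weight as a test there. At the same unadjusted p, 516 of all 6963 probe sets tested were higher and 322 lower in beta against alpha, and 791 and 665 in delta against alpha. The counts were 441 and 259 in epsilon against alpha and 570 and 657 in delta against beta. They were 512 and 472 in epsilon against beta and 926 and 674 in epsilon against delta. Other settings called up to 2 members in a contrast, from Rpl7a, Rpl39l and Rps28 and from Rpl22 92857_at, which was tested only through beta. The medians over the 30 lay between −0.02 and 0.03.

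The ribosomal protein genes varied together from array to array, and the arrays numbered 1 were the low ones. Among the 26 probe sets above the filter throughout, 18 had their lowest signal of the group on number 1 in all 5 groups, 5 did in 4 groups and Rpl13a did in 3. Rpl32 did in 1 group and Rps27 in 0. The median log2 difference of number 1 from the other arrays of its group was −0.30 over the 26 and −0.07 over all probe sets tested. For the 23 brighter than 10000 units it was −0.32 in vector, −0.39 in alpha, −0.34 in beta, −0.14 in delta and −0.40 in epsilon. The 764 probe sets over 10000 units outside the ribosomal protein annotations gave −0.18, −0.11, −0.23, −0.11 and −0.26. The drop was thus shared by other bright probe sets but was smaller there. The 23 had a median mean of 71261 units, and the 764 were not matched to them in brightness above 10000 units.

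After quantile normalization the difference over the 26 was −0.03, and their median within-group SD went from 0.21 to 0.08 on the log2 scale, while that of all probe sets tested went from 0.24 to 0.22. What set these arrays apart was not tested. Without the 5 arrays numbered 1, none of the 30 was called in any contrast, and the medians against vector were −0.10 in alpha, −0.10 in beta, −0.17 in delta and −0.10 in epsilon.

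**Figure D3:**
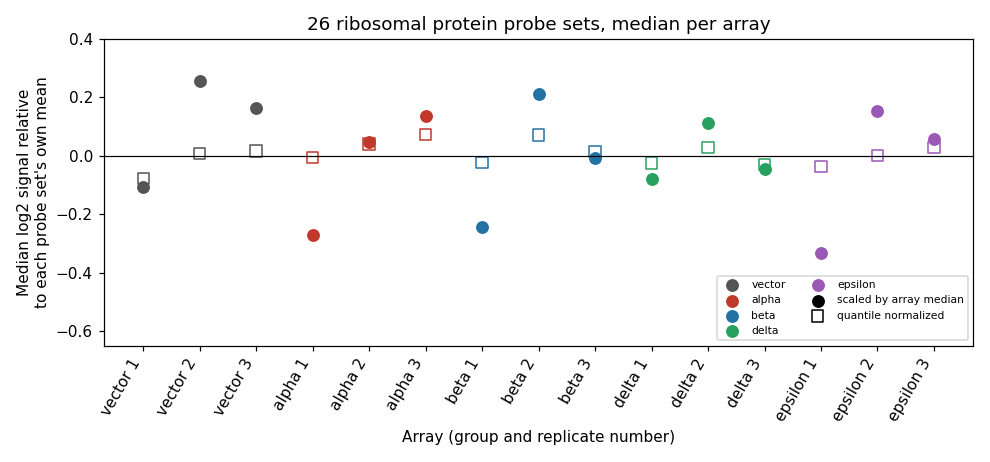
Median over 26 ribosomal protein probe sets of the log2 signal relative to each probe set's own mean, 1 position per array; filled circles are scaled by array medians and open squares are quantile normalized. Number 1 is the lowest filled circle of each group, from −0.33 in epsilon to −0.08 in delta, and the open squares all lie within 0.08 of 0.

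The members also resembled each other more across arrays than the 764 other bright probe sets did, but these were not matched to the members in brightness. Over the 15 arrays, the 253 pairs among the 23 brightest had a median Pearson correlation of log2 signal of 0.82, with a range of 0.03 to 0.99, against 0.28 over pairs of the 764 others. Without the arrays numbered 1 the medians were 0.63 and 0.23. The arrays are the shared points of every pair and their scaling enters all of them, so these values are descriptions. The closest pairs were Rpl19 with Rpsa (0.99), Rpl8 with Rps3 (0.97) and Rpl19 with Rpl8 (0.97). The lowest all involved the dim Rpl22 92856_at, with Rpl7a (−0.80), Rpl10a 100711_at (−0.74) and Rpl6 (−0.72). Of probe sets outside the rule, Ncl, which encodes the nucleolar protein nucleolin, followed the members' median most closely (0.98). Next were 94767_at and 160476_f_at, which have no symbol here (0.96 and 0.95). A probe set shared by Rasl2-9 and Ran (0.95) and 1 shared by Rpl13 and its copy Rpl13-ps6 (0.95) came after them. Arf1 (0.95), Gnas (0.94) and a probe set shared by Tuba1a, Tuba1b, Tuba1c and Gm5620 (0.94) followed. The means of all these probe sets ran from 50270 units (Ncl) to 97530 units (the probe set of Rpl13 and Rpl13-ps6). Close variation with the members was thus not limited to ribosomal protein genes. Whether the members resembled each other more than probe sets of like brightness do was not tested.

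Rpl7a, a protein of the large subunit, had the largest positive differences of the bright members in alpha and beta and the longest pyrimidine run of those shown. Its signal was 46334, 55732 and 52579 units in vector, and 54408, 63405 and 72124 units in alpha. It was 54515, 75984 and 62411 units in beta, 48855, 71510 and 59786 in epsilon, and 48966, 59369 and 50493 in delta. Number 1 was the lowest array of every group, and the ranges of all groups overlapped that of vector. The means were 51548 ± 4783 units in vector, 63312 ± 8858 in alpha, 64303 ± 10859 in beta, 52942 ± 5618 in delta and 60050 ± 11330 in epsilon (SD, n = 3).

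On the log2 scale Rpl7a differed from vector by 0.29 in alpha (limma adjusted p 0.301), 0.31 in beta (adjusted p 0.281), 0.04 in delta (adjusted p 0.996) and 0.21 in epsilon (adjusted p 0.449), each with SE 0.17. None of these passed the test. The 95% intervals were −0.06 to 0.64 in alpha, −0.04 to 0.66 in beta, −0.31 to 0.39 in delta and −0.14 to 0.56 in epsilon.

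With quantile normalization the same probe set gave 48836, 46495 and 51050 units in vector and 66392, 61672 and 66392 in alpha. Beta was at 64269, 64933 and 64269 units, epsilon at 61179, 65622 and 59334, and delta at 48409, 52964 and 50318. Alpha, beta and epsilon then lay above every vector and delta array, and vector and delta overlapped. The differences of 0.41, 0.40 and 0.35 had limma adjusted p-values of 1.086e-04, 2.484e-04 and 5.585e-04 under that setting. Delta was lower than alpha by 0.36 (adjusted p 6.226e-04) and than beta by 0.35 (adjusted p 0.00126), and epsilon was higher than delta by 0.29 (adjusted p 0.00328).

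Scaling by the members' own median, added after the data were seen, called Rpl7a in the same 3 contrasts with vector, at 0.42, 0.43 and 0.35. That scaling moves the median of all probe sets tested by 0.14, 0.15, 0.12 and 0.22 in alpha, beta, delta and epsilon, so its values are relative to the other ribosomal protein genes. Rpl7a was above vector in alpha, beta and epsilon under all 29 settings run and was called in 3, 3 and 2 of them. In delta it was positive in 27 and called in none.

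**Figure D4:**
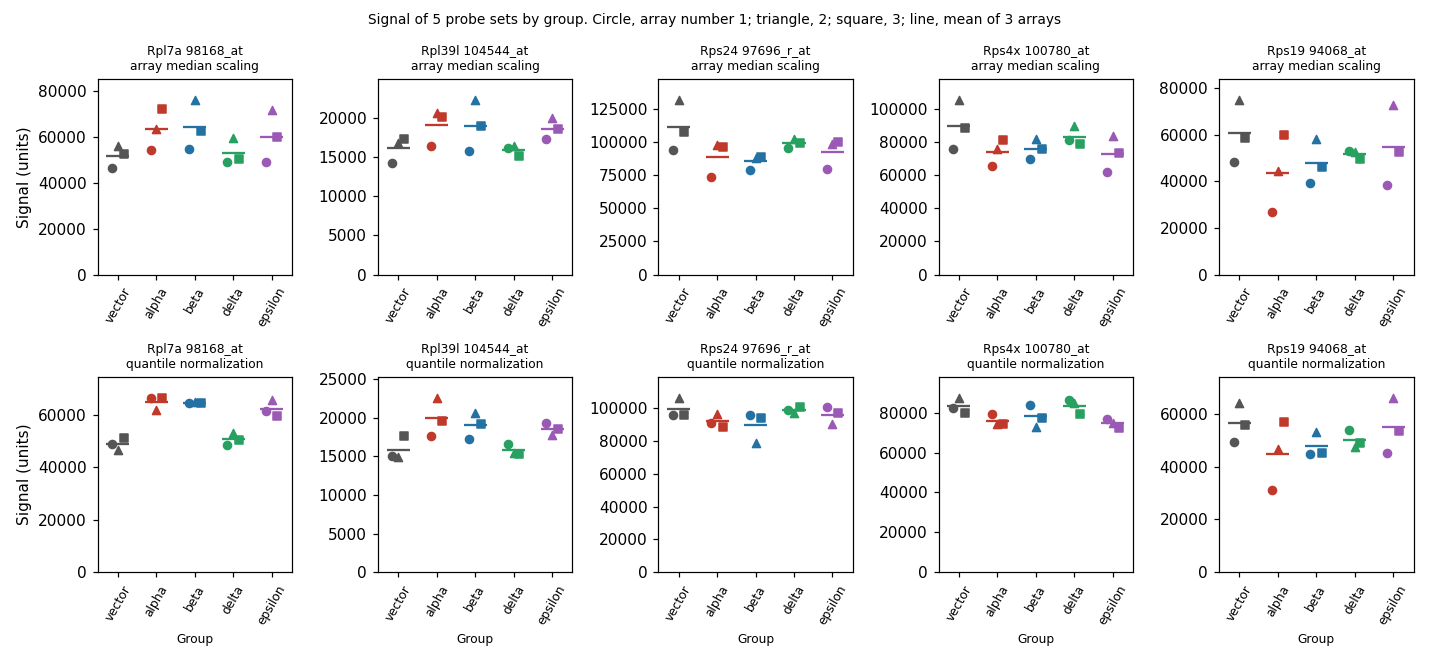
Signal of 5 probe sets on each array, from 0, under array-median scaling (top) and quantile normalization (bottom), with lines at the means of 3 arrays. In the lower row the Rpl7a arrays of alpha, beta and epsilon, from 59334 to 66392 units, lie above those of vector and delta, from 46495 to 52964 units; in the upper row its groups all overlap vector.

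Rpl39l, a paralog of the large-subunit protein Rpl39 known from testis and some tumours, showed a like order of groups. Its signal was 14211, 16845 and 17312 units in vector, 16397, 20632 and 20092 in alpha, and 15808, 22280 and 18940 in beta. It was 16095, 16418 and 15097 units in delta and 17346, 19979 and 18582 in epsilon. The epsilon arrays lay above all vector arrays by a narrow margin, and the other groups overlapped vector. The log2 differences were 0.24, 0.23, −0.02 and 0.21 in alpha, beta, delta and epsilon, with SE 0.14 and limma adjusted p-values of 0.318, 0.359, 0.996 and 0.343. Quantile normalization called it in alpha (0.33, adjusted p 0.0338), and scaling by the members called it in alpha, beta and epsilon at 0.37, 0.35 and 0.36. Its parent Rpl39 was measured by 1 dim probe set, at 329 units on average, which was not tested.

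The other paralogs gave no call. Rpl7l1, a relative of Rpl7, averaged 2728 ± 432 units in vector and 2456 to 2708 units in the C/EBP groups, and its differences from vector were −0.01, −0.15, −0.16 and −0.12. Rps27l, a p53 target related to Rps27, ranged from 119 to 1824 units over the 15 arrays and was not tested. Rps27 itself, by 96301_at, averaged 5633 ± 519 units in vector and 5433 to 5830 units in the other groups, with differences of 0.04, −0.05, 0.05 and 0.02.

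Rps24, a small-subunit protein that is mutated in some cases of Diamond-Blackfan anaemia, had the largest negative difference in beta among the bright members. Its signal by 97696_r_at was 93864, 131866 and 108010 units in vector and 78795, 88407 and 89021 in beta. It was 73387, 97595 and 96112 units in alpha, 95558, 102105 and 99331 in delta, and 79361, 98980 and 100279 in epsilon. All beta arrays were below all vector arrays, and the other groups overlapped vector. The log2 differences were −0.32, −0.37, −0.15 and −0.25 in alpha, beta, delta and epsilon, with SE 0.15 and limma adjusted p-values of 0.205, 0.159, 0.982 and 0.296.

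Without the further scaling of the arrays Rps24 was called in beta (−0.38, adjusted p 0.0334), as it was with scaling by the members (−0.25, adjusted p 0.0421), but not with quantile normalization. Over all 29 settings it was called in 1 in alpha, 3 in beta, 0 in delta and 1 in epsilon, always lower, and it was negative in each of these contrasts under every setting. The suffix _r marks probe sets designed with relaxed rules, and 93121_at, the other probe set of the gene, was too dim to test.

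Rps19, a small-subunit protein and the gene most often mutated in Diamond-Blackfan anaemia, varied more than any other bright member. It gave 48149, 74853 and 58660 units in vector, 26901, 44532 and 59741 in alpha and 39115, 58295 and 46111 in beta. It gave 53121, 52500 and 49331 units in delta and 38563, 72488 and 52664 in epsilon. All groups overlapped, and the lowest value of all was alpha number 1. The difference in alpha was −0.52 with SE 0.26 (limma adjusted p 0.231), and its 95% interval ran from −1.08 to 0.04. It was called lower in alpha in 1 of 29 settings and in no other contrast with vector.

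Rps4x by its bright probe set, 100780_at, gave 75867, 105574 and 88534 units in vector and 61959, 83726 and 73440 in epsilon. It gave 65674, 76122 and 81390 units in alpha, 69759, 82105 and 75848 in beta and 81351, 89647 and 78736 in delta. All groups overlapped vector, whose number 2 was the highest of the 15. The differences were −0.27, −0.24, −0.10 and −0.30 in alpha, beta, delta and epsilon, with limma adjusted p-values of 0.296, 0.388, 0.993 and 0.198. Epsilon was called without further scaling (−0.33, adjusted p 0.0234) and with scaling by the median ratio to the mean array (−0.35, adjusted p 0.0475). Over all 29 settings it was called lower in 1 in alpha and 3 in epsilon, and in none in beta and delta.

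The dim Rps4x probe set 162498_r_at went the other way in epsilon, with 639, 1172 and 1331 units against 346, 184 and 602 in vector. All epsilon arrays were above all vector arrays, but delta ranged from 300.1 to 1798 units within 1 group. The difference was 1.55 with SE 0.75 (limma adjusted p 0.177), so the probe sets of this gene disagreed in sign.

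Rpl22, a large-subunit protein that is not needed for general translation, had a dim probe set that was high in beta. This probe set, 92857_at, gave 1332, 1363 and 1195 units in beta and 633, 233 and 587 in vector. Alpha gave 599.9, 401 and 499.98 units, delta 516, 319 and 440.1, and epsilon 300.1, 719 and 474. All beta arrays were above the other 12 arrays. The difference in beta was 1.55 with SE 0.49, and limma's adjusted p of 0.0572 was over the threshold. Because it passed the filter only through the beta arrays, it was bound to differ there, and its values and the calls that some settings gave it are a description with no weight as a test.

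The second Rpl22 probe set, 92856_at, differed by −0.50 in beta with SE 0.64 (limma adjusted p 0.71) and gave 1259, 241 and 467 units there. It did not show the separation seen with the first. Both lay near the filter, and whether either reports the gene's mRNA was not tested.

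Rplp0, the base of the stalk that recruits elongation factors and a gene often used as a reference in PCR, was among the brightest. It averaged 158073 ± 20199 units in vector, 144545 ± 27800 in alpha, 137886 ± 24200 in beta, 147090 ± 9182 in delta and 142311 ± 24048 in epsilon. Its differences were −0.14, −0.20, −0.10 and −0.16, with limma adjusted p-values of 0.692, 0.568, 0.996 and 0.615. Rpsa, the small-subunit protein also known as the laminin receptor, averaged 25781 ± 4742 units in vector and 23388 to 24707 units in the C/EBP groups. Its differences were −0.14, −0.07, −0.10 and −0.09. Both genes had number 1 as the lowest array of every group.

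Rpl41, a short basic peptide of the large subunit, Rps28 and Rplp0 had the brightest probe sets, and Rps4x 162229_at, Rps15 and Rps4x 162244_r_at the dimmest. Rpl41 ranged from 128064 to 192214 units over the 15 arrays, and its differences were −0.13, −0.13, −0.15 and −0.14. Rps28 98085_f_at differed by −0.15, −0.10, −0.11 and −0.27 and 100758_at by −0.14, −0.08, −0.13 and −0.17. Under quantile normalization alone 98085_f_at was called higher in beta (0.16, adjusted p 0.0259), so its sign there depended on the scaling. Rps29 98523_at, the nearest to the filter, was lower in alpha at 1154, 916 and 1049 units against 1315, 1248 and 1645 in vector, with a difference of −0.43 (limma adjusted p 0.205).

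In delta the 26 probe sets above the filter throughout differed from vector by −0.21 to 0.05. The smallest p-values among negative differences were those of Rps18 (−0.20, limma adjusted p 0.978), Rps24 (−0.15) and Rpl7l1 (−0.16). Among positive differences they were those of the dim Rps4x 162498_r_at (0.88, adjusted p 0.968), Rps27 (0.05) and Rpl10a 161327_f_at (0.05). Rpl13a, whose protein can leave the ribosome to silence mRNAs in macrophages, differed by 0.08, 0.00, 0.00 and 0.12 from vector, and Rpl32 by 0.11, −0.28, −0.12 and 0.10. None of these passed the test in any of the 4 contrasts.

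A further 39 probe sets were annotated with a ribosomal protein gene and 1 or more of its copies, and the rule left them out. Of the 34 that were tested, limma called 0 in alpha, beta and delta and 1 in epsilon (2.94%). Over all probe sets tested the shares in alpha, beta, delta and epsilon were 14.3%, 9.31%, 0.359% and 16.3%. The 1 called was a probe set shared by Rps27 and Rps27rt. It averaged 72444 ± 8974 units in vector and 52585 ± 6874 in epsilon, with a difference of −0.46 (adjusted p 0.0432). The medians over the 34 were −0.13, −0.12, −0.08 and −0.13 and so lay close to those of the members. In summed deposited signal the 49 probe sets took 4.25 ± 0.31% of an array in vector, 4.03 ± 0.48% in alpha, 3.98 ± 0.30% in beta, 3.99 ± 0.13% in delta and 3.88 ± 0.33% in epsilon (SD, n = 3).

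Among genes that build or feed the ribosome, the share called differed from list to list. Aminoacyl-tRNA synthetases load amino acids onto tRNAs, and of 18 tested 6 fell in alpha, 4 in beta, 0 in delta and 7 in epsilon, while 1 rose in epsilon (Farsb). These are 33.3% in alpha, 22.2% in beta and 44.4% in epsilon, against 14.3%, 9.31% and 16.3% of all probe sets tested. Their medians were −0.27, −0.15, −0.03 and −0.17. Nars, which loads asparagine, fell in alpha, beta and epsilon, with log2 differences of −1.21, −0.64 and −1.49 (limma adjusted p 1.61e-04, 0.0322 and 2.19e-05) and differed by −0.05 in delta. Aars, which loads alanine, fell in the same groups, with −1.13, −0.68 and −1.36 (adjusted p 2.62e-05, 0.00526 and 3.98e-06) and differed by −0.25 in delta. Gars and Iars also fell in those 3 groups, Gars with −0.83, −0.65 and −0.85 and Iars with −0.49, −0.34 and −0.54.

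Of 57 mitochondrial ribosomal protein genes tested, which serve the ribosome of the mitochondrion, 5 rose in alpha, 5 in beta, 0 in delta and 8 in epsilon, and none fell in any of the 4. Their medians were 0.16, 0.21, 0.01 and 0.19, against −0.14, −0.11, −0.10 and −0.15 for the cytosolic members. Mrpl39 rose by 0.67, 0.69 and 0.57 in alpha, beta and epsilon (limma adjusted p 0.00558, 0.00738 and 0.0147), and Mrps17 by 0.63, 0.56 and 0.52. Mrps22 rose by 0.78 in alpha and 0.76 in beta. The shares called, 8.77%, 8.77% and 14% in alpha, beta and epsilon, were below the 14.3%, 9.31% and 16.3% of all probe sets tested.

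Among 43 ribosome biogenesis genes tested, 5 rose and 2 fell in alpha, 2 rose in beta, none was called in delta, and 3 rose and 3 fell in epsilon. The shares called were 16.3% in alpha, 4.65% in beta and 14% in epsilon, near or below the 14.3%, 9.31% and 16.3% of all probe sets tested. Wdr43, a nucleolar factor of small-subunit assembly, rose by 0.60 in alpha, 0.67 in beta and 0.64 in epsilon (limma adjusted p 0.00831, 0.00648 and 0.00524), and Ddx21, a nucleolar RNA helicase, by 0.47, 0.56 and 0.45. Nop16 fell in alpha (−0.53) and epsilon (−0.67), and Ebna1bp2 rose by 0.60 in alpha. Ncl and Npm1, the abundant nucleolar proteins, differed from vector by at most 0.16 in either direction and were not called.

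Of 27 initiation factors tested, 4 rose in alpha, 1 in beta, 0 in delta and 2 in epsilon, and none fell. The shares were 14.8%, 3.70% and 7.41% in alpha, beta and epsilon, against 14.3%, 9.31% and 16.3% of all probe sets tested. Eif4b, a cofactor of the helicase that unwinds mRNA starts and itself encoded by a TOP mRNA, rose by 0.78, 0.68 and 0.71 in alpha, beta and epsilon (limma adjusted p 0.00196, 0.00901 and 0.00417). In delta neither Eif4b nor any other of the 27 was called, and the largest difference was 0.71. The list of TOP RNAs below, which shares Eif4b and some Eif3 factors with this one, had the same largest difference in delta. The lack of a call does not show that no such rise took place there. Eif4g2 and Eif1a rose in alpha by 0.79 and 0.67, and Eif1b rose in epsilon by 0.82. Of 15 genes for elongation factors and other TOP RNAs, Eif4b rose as given, and Gas5, a TOP RNA that hosts small nucleolar RNAs, fell in epsilon (−0.43, adjusted p 0.0483). No other gene of that list was called in any of the 4 contrasts, and the shares of 6.67%, 6.67% and 13.3% were below those of all probe sets tested.

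Of 15 genes of growth and stress signalling to the ribosome, 1 rose and 2 fell in alpha, 3 fell in beta, none was called in delta, and 1 rose and 3 fell in epsilon. That is 20%, 20% and 26.7% in alpha, beta and epsilon, against 14.3%, 9.31% and 16.3% of all probe sets tested, over few genes. Ppp1r15a, which directs the phosphatase that restores initiation after stress, fell in alpha, beta and epsilon, with differences of −2.51, −2.05 and −2.57 (limma adjusted p 1.03e-08, 1.35e-06 and 7.17e-09). Mdm2, whose protein is bound by free ribosomal proteins, fell in the same groups, with −1.47, −0.91 and −1.30. Ddit4, an inhibitor of mTORC1, fell in beta (−0.83) and epsilon (−0.75), and Eif4ebp2, a repressor of initiation, rose by 0.46 in alpha and 0.47 in epsilon.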

How the data were processed

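Total RNA of 15 NIH 3T3 cultures was hybridised to Affymetrix MG_74Av2 arrays. The deposited values are linear signal intensities, made by the authors with Affymetrix Microarray Suite 5.0, per the labels. All columns were mapped to samples by title. Controls (66 of 12488 probe sets) were left out, and arrays were scaled by their medians, floored, filtered and put on the log2 scale as given above. Of the rest, 10833 probe sets had 1 symbol, 396 several and 1193 none.

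One limma 3.58.1 fit in R 4.3.3 (lmFit, eBayes with a trend) held all groups, with no block. P-values were two-sided, with Benjamini-Hochberg adjustment in each contrast over the 6963 probe sets (5338 genes). The script was tested on simulated data. Alternatives covered scaling, floor, filter, trend, a block for replicate number, array weights and leaving out each array.

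The members and gene lists were chosen with earlier results of these data known. Genes named were those with the smallest p in each direction and contrast, the 5 with the smallest F-test p, the brightest and dimmest, those near or under the filter, paralogs, those with several probe sets, and up to 4 called genes of each other list, taken from 1 probe set per gene, the brightest. Promoters of 7 genes were not in the table used.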

Additional observations from a re-analysis of the deposited data

How the results depend on the processing

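The count of ribosomal protein probe sets differing among the 5 groups, 0 in the main setting, was 2 with quantile normalization, 2 with scaling by the members (chosen after seeing the data), 2 with the replicate block, and 1 each with the floor at the 40th percentile, no trend and array weights. Against vector, quantile normalization called 2 in alpha, 3 in beta and 1 in epsilon, and scaling by the members 2, 3 and 2. Of all probe sets tested, quantile normalization called 18.3% in alpha, 13.2% in beta, 0.560% in delta and 19.2% in epsilon. Scaling by the members called 14.6%, 9.73%, 0.511% and 18.5% of them in the same order. No further scaling called 2 in beta and 1 in epsilon, and scaling by the median log2 ratio 1 in epsilon. The 40th percentile floor, no trend and array weights called 1 each in beta, Rpl22 92857_at, which was tested only through beta and is also 1 of those under quantile normalization and no further scaling. With the replicate number as a block, alpha had 4 (Rps4x, Rps19 and Rps24 lower, Rpl7a higher), beta 2 (Rps24 lower, Rpl7a higher), delta 0 and epsilon 4 (Rps4x, Rpl7, Rps24 and Rps28 lower), with adjusted p-values from 0.00695 to 0.0455. Among these alternatives, shares over all probe sets are given only for quantile normalization and scaling by the members, and only against vector. The other counts under alternatives have no such share beside them. Over all probe sets, deviations from the group means correlated at a median of 0.35 between arrays numbered 1, 0.30 between those numbered 2 and 0.05 between those numbered 3, against −0.09 between different numbers. Not every same-number pair exceeded 0.1 (10, 8 and 2 of 10 did), and in no comparison with vector did all 3, so the block was kept as an alternative; in delta against beta all 3 did, and the block called 0 there too.

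Between C/EBPs, delta against alpha had 2 with quantile normalization and 1 with scaling by the members. Delta against beta had 2 and 1, and 1 each with the 40th percentile floor, no trend, array weights and only the groups of the contrast. Epsilon against beta had 1 with quantile normalization, the 40th percentile floor and array weights. Beta against alpha had 1 with that floor, and epsilon against delta 1 with quantile normalization. Those under that floor, no trend, array weights and only the groups of the contrast were all Rpl22 92857_at. Leaving out each array gave 0 to 1 in beta against vector (1, Rpl22 92857_at, without epsilon 1) and 0 to 1 in delta against beta (1, the same probe set, without vector 2), and 0 in every other contrast. The medians over the members then ranged from −0.24 to 0.01 in alpha, −0.22 to −0.00 in beta, −0.20 to −0.02 in delta and −0.25 to −0.01 in epsilon. The highest of each came without number 1 of the C/EBP group, or without vector 2 in delta, and the lowest without vector 1, or without beta 2 in beta. The cause of these changes was not tested.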
